A study of Mus musculus with 5 samples.

Results

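Of the 3507 STAT3 regions that the authors called against IgG in diluent-treated mouse bone marrow dendritic cells, 720 overlapped no STAT3 region called in SAHA-treated cells and touched, by at least 1 bp, a region of trimethylated lysine 4 of histone H3 (H3K4me3) called in diluent. These 720 diluent-only STAT3 regions at H3K4me3, the members, were selected on the presence of a call in 3 lists, so their STAT3 scores and their loss from the SAHA list are given as descriptions. Another 2553 diluent-only STAT3 regions lay outside H3K4me3, and 154 regions at H3K4me3 were shared between the STAT3 lists. The SAHA list held 2017 regions at the same diluent H3K4me3 that were called in SAHA only.

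The cells came from the marrow of female C57BL/6 mice aged 10 weeks and were grown for 7 days in GM-CSF and IL-4 (10 ng/mL of each). They were selected on CD11c to 95% purity and then kept for 12 h in SAHA, at a dose labelled 500 nm, or in diluent alone. Chromatin of 200 to 500 bp was precipitated with antibodies to STAT3 or H3K4me3 from both treatments and with rabbit IgG from diluent cells only. Each of these 5 groups has 1 library, so the conditions have no replicate error, no difference between them was tested, and every interval below covers counting error alone. All groups share the cytokines, the CD11c selection and the diluent IgG control, and the labels do not say whether animals were pooled.

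STAT3 is a transcription factor that is phosphorylated by Janus kinases after cytokines such as IL-6 and IL-10 bind their receptors, and that then enters the nucleus as a dimer and binds DNA. In dendritic cells it is known for restraining maturation and inflammatory cytokine output. H3K4me3 is a histone mark found at active and poised promoters. SAHA (vorinostat) blocks zinc-dependent histone deacetylases, the enzymes that remove acetyl groups from histones and from other proteins, STAT3 among them.

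After removal of duplicate tags the STAT3 libraries held 25013431 tags (diluent) and 17810183 tags (SAHA), the H3K4me3 libraries 22420200 and 21428355, and the IgG library 18925827. The SAHA STAT3 list was the longer, with 8552 regions. H3K4me3 lay within 5 kb of a start of all 12 dendritic cell markers checked (Itgax, Flt3, Zbtb46 and Irf8 among them) in both treatments, but also of all 7 macrophage and monocyte markers, 3 of 4 granulocyte and mast cell markers, 2 of 3 T cell markers (Lck, Gata3) and 2 of 2 erythroid markers (Klf1 among them). It lay near 0 of 3 B cell and 0 of 2 NK cell markers. These counts leave out markers with no start in the authors' lists. As drawn up there were 6 granulocyte and mast cell, 6 T cell, 5 B cell, 3 NK cell and 4 erythroid markers. The share over all genes was not counted, so the marker counts are a description. The part of other cell types in the results was not tested.

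To show promoter DNA of genes whose listed start a member covers, the 250 bases before the RefSeq start (build GRCm38.p6) are printed 5′ to 3′. They are given for the 6 highest-scoring members that span the listed start of a gene held in the promoter table. Zfp46 has 2 starts in that table and both are shown. Il6 and Ccl6 were added after their values were seen, for the score of the first and the H3K4me3 difference of the second. Capitals mark a STAT motif (TTCNNNGAA), an AP-1 motif (TGANTCA), a cyclic AMP response element (TGACGTCA), an ETS motif (GAGGAAGT), a CCAAT box (CCAAT) or a GC box (GGGCGG), each searched on both strands. The table's starts can differ from those in the authors' lists, which use build mm9. A printed promoter may thus belong to a start that the member does not cover. The 2 starts of Zfp46 lie too far apart for its member to span both.
Frmd5, chr2:121807058-121807307, minus strand: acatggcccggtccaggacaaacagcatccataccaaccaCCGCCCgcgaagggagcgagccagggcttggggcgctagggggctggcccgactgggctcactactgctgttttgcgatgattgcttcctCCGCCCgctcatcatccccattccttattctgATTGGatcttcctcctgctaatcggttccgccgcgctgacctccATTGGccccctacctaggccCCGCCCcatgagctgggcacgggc
Slfn3, chr11:83191080-83191329, plus strand: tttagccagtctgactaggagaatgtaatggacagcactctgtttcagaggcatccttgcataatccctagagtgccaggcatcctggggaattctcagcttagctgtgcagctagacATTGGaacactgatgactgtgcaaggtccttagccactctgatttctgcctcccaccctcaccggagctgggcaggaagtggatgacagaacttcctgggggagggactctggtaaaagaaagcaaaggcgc
Snupn, chr9:56950658-56950907, plus strand: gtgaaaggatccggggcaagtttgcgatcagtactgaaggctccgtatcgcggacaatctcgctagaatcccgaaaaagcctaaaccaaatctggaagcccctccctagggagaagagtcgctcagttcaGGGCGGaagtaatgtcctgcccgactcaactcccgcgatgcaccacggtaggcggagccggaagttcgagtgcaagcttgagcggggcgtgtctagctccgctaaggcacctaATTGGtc
Zfp46, first start, chr4:136284426-136284675, plus strand: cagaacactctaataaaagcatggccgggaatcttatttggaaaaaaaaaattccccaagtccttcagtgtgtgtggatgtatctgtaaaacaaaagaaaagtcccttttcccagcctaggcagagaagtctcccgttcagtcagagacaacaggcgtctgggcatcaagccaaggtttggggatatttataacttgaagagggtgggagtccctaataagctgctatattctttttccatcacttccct
Zfp46, second start, chr4:136285817-136286066, plus strand: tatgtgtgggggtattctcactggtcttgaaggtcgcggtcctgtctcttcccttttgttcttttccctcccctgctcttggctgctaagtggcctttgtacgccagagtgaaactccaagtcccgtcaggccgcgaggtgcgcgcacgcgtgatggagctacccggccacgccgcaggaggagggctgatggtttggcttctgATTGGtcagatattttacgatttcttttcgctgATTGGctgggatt
Snap23, chr2:120567421-120567670, plus strand: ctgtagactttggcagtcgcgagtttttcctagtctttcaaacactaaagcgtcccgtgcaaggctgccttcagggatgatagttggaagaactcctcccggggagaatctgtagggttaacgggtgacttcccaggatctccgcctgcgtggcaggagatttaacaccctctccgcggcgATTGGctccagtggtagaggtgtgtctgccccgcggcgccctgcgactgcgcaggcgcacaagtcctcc
Alpk1, chr3:127780528-127780777, minus strand: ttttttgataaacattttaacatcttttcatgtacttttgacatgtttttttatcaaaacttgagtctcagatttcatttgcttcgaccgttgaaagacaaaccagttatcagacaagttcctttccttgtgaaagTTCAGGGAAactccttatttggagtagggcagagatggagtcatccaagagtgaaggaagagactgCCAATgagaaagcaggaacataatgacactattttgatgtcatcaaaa
Il6, chr5:30012864-30013113, plus strand: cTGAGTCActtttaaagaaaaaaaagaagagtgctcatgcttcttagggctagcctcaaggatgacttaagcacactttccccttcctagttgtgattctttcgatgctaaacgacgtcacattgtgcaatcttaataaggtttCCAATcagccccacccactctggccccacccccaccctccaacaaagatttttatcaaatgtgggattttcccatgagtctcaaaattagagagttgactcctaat
Ccl6, chr11:83593088-83593337, minus strand: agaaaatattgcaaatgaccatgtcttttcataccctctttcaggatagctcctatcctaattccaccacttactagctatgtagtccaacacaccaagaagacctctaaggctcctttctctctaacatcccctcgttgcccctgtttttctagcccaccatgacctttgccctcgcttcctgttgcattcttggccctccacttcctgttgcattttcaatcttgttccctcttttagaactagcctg

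The printed promoters fall into 2 kinds. Those of Frmd5, Snupn, Snap23 and the second start of Zfp46 held 15 to 19 CG dinucleotides, and those of Slfn3, Alpk1, Il6, Ccl6 and the first start of Zfp46 held 2 or 3. Alpk1, which encodes a kinase that senses bacterial sugar nucleotides, carried the 1 STAT motif among them. Il6, the gene of the cytokine that activates STAT3, carried an AP-1 motif and a CCAAT box. Ccl6, a chemokine gene, carried none of the motifs searched.

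Over all 127 named genes whose assigned start a member covered, 103 (81.1%) were in the promoter table, with 127 promoters. These had a median of 11 CG dinucleotides in 250 bases. The median was 16 over 834 promoters of 642 genes whose start a SAHA-only STAT3 region covered (SAHA-only STAT3 starts). It was also 16 over 11480 promoters of 9004 genes whose start lay in diluent H3K4me3 without a diluent STAT3 region (H3K4me3 starts). Every promoter of such a gene was counted, so some may lie at a start that was not covered. The median over all 32851 promoters was 6. The member promoters held a GC box in 43.3% (95% exact Clopper-Pearson interval 34.5 to 52.4), below the 60.2% (56.8 to 63.5) of SAHA-only STAT3 starts and the 59.0% (58.1 to 59.9) of H3K4me3 starts, and above the 32.7% of all promoters. CCAAT boxes went the other way, with 48.0% (39.1 to 57.1) against 35.5%, 34.9% and 33.8%. Promoters with under 10 CG made up 42.5% (33.8 to 51.6) of the member set, 24.9% (22.0 to 28.0) of SAHA-only STAT3 starts and 27.8% of H3K4me3 starts.

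The STAT motif TTCNNNGAA occurred in 14 of the 127 member promoters (11.0%, interval 6.16 to 17.8), against 7.31% (5.64 to 9.30) of SAHA-only STAT3 starts, 5.76% (5.34 to 6.20) of H3K4me3 starts and 7.02% of all promoters. The interval of the members overlaps those of the SAHA-only and the H3K4me3 starts. Among promoters with under 10 CG the shares were 13.0% (7 of 54, interval 5.37 to 24.9) for members and 8.31% for H3K4me3 starts, a difference within counting error. The longer form TTCCNGGAA stood in 1 member promoter (0.787%) and in 0.913% of all promoters. The AP-1 motif was found in 7.87% (3.84 to 14.0) of member promoters and 4.49% of H3K4me3 starts, and the ETS motif in 4.72% (1.75 to 10.00) and 2.60%. Promoters of 1 gene share sequence, so these intervals are somewhat too narrow.

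**Figure D1:**
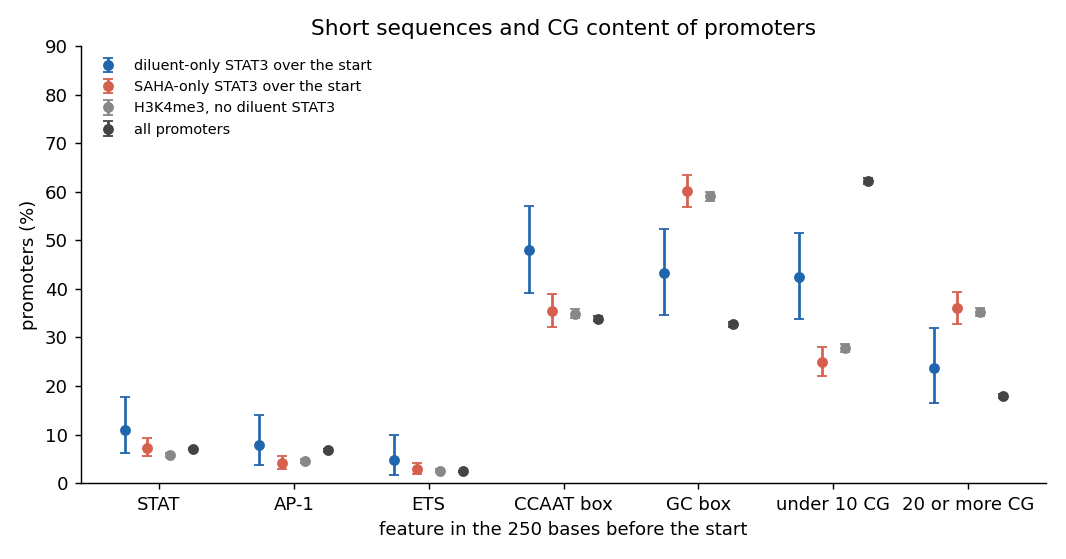
Share of promoters (%) with each short sequence or CG count in the 250 bases before the start, for 4 sets of promoters, with exact 95% intervals for counting error. Promoters of genes whose start a diluent-only STAT3 region covers (blue) hold a GC box in 43.3% and under 10 CG in 42.5%. The SAHA-only STAT3 starts (red) lie close to the H3K4me3 starts, which have no diluent STAT3 region (grey).

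The members were weak STAT3 calls. The authors' score, the value in their list and comparable only within 1 list, ran from 30.01 to 147.22 with a median of 37.5 and quartiles of 32.9 and 44.7. The diluent-only regions outside H3K4me3 had a median of 34.3, and the shared regions at H3K4me3 one of 40.3. The median member was 869 bp long, against 658 bp outside H3K4me3. In the authors' own table of the diluent STAT3 library called without a control, which held 844 regions, a region met 77 members (10.7%). There they held 21 to 76 tags (median 30) at 33.2 to 51.4 tags per kb. The share for other diluent STAT3 regions was not counted. In the matching table of the SAHA library a region met 1 member, that assigned to 1700009P17Rik. The rule had already removed regions that overlap the SAHA list, so this count is no result about STAT3 loss. No member overlapped an IgG region, and 0 of 720 allows a share of up to 0.511% (upper end of the exact interval). Outside H3K4me3, 2 of the 2553 diluent-only regions did (0.078%), and the list was called against this IgG library.

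The 10 highest-scoring members assigned to a named gene were those of Lilrb4 (147.22), Frmd5 (128.87), Cd53 (109.9), Akr1a4 (100.3), Nfkbiz (98.53), Atp6v1g3 (92.22), Ccrl2 (91.17), Akap13 (89.81), Pde3b (83.82) and Dph3 (82.04). Lilrb4 encodes an inhibitory receptor of myeloid cells, Cd53 a tetraspanin of leukocytes, and Nfkbiz an atypical inhibitor of NF-kB that is itself a cytokine response gene. Ccrl2 encodes a receptor that binds chemerin, and Akap13 a scaffold of protein kinase A signalling. In the table without a control the Lilrb4 member (chr10:51173289-51174536, build mm9 here and below) held 58 STAT3 tags, the Frmd5 member 53 and the Ccrl2 member 52, while the Cd53 and Nfkbiz members met no region there. Lilrb4 has a close relative beside it, so reads may have been split between the copies.

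The share of diluent-only STAT3 regions that lay at H3K4me3 was 22.0% (720 of 3273) and was greater among higher scores. It was 16.4% (14.6 to 18.2) for scores from 30 to below 35, 20.7% from 35 to below 40, 30.9% from 40 to below 50, 38.7% from 50 to below 70, and 48.1% (25 of 52, interval 34.0 to 62.4) from 70 on. Among STAT3 regions that did overlap a SAHA region the share was 65.8% (154 of 234, interval 59.3 to 71.9), and it lay between 60.0% and 76.2% in all 5 score classes. SAHA-only regions lay at the same H3K4me3 in 24.3% (23.3 to 25.2).

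**Figure D2:**
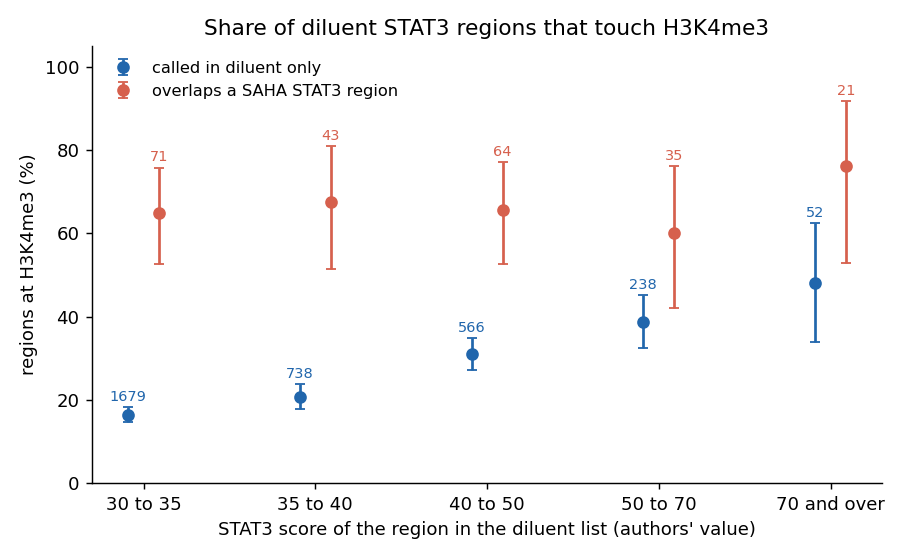
Share of diluent STAT3 regions that touch a diluent H3K4me3 region (%), by the authors' STAT3 score, with exact 95% intervals and the number of regions above each. The share goes from 16.4% to 48.1% over the score classes for regions called in diluent only (blue) and is 60.0% to 76.2% for regions that overlap a SAHA region (red).

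At the edge of the rule, 3 members lay 8 or 9 bp from a SAHA STAT3 region: those of Rnf13 (8 bp), Sigirr (8 bp), which encodes a brake on interleukin-1 and Toll-like receptor signalling, and Irf2 (9 bp), an interferon regulatory factor. The 3 members that touched H3K4me3 least were assigned to Nrp2 (9 bp), Edc4 (11 bp) and Ext1 (57 bp). Just outside, the diluent-only regions of Mpp6, Irg1 and Gbp11 ended 2, 3 and 13 bp from H3K4me3, and the shared regions of Mlxip, Bmp2k and Atp6v0a1 met a SAHA region over 5, 24 and 37 bp. In all, 452 members (62.8%) lay wholly inside H3K4me3, and 63 (8.75%) were covered for less than 50%.

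By the starts in the authors' lists, 299 members (41.5%, interval 37.9 to 45.2) had their midpoint within 1 kb of the assigned start, 177 (24.6%) between 1 and 5 kb, and 244 (33.9%, interval 30.4 to 37.5) beyond 5 kb. Of the diluent-only regions outside H3K4me3, 1.53% lay within 1 kb of a start, but H3K4me3 is part of the rule and marks starts, so this contrast is no result about STAT3. All diluent H3K4me3 regions had 50.8% (50.1 to 51.4) of midpoints within 1 kb and SAHA-only STAT3 regions at H3K4me3 had 58.5% (56.3 to 60.7), and the interval of the members lay below both. The shared STAT3 regions at H3K4me3 had 51.3% (43.1 to 59.4), and the interval of the members overlaps theirs. Beyond 5 kb lay 32.5% of the shared regions and 35.2% of all H3K4me3 regions, near the 33.9% of the members. Of the SAHA-only regions at H3K4me3, 21.4% lay there.

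Around the start the members sat differently from the SAHA-only STAT3 regions and from the H3K4me3 regions. Of the 299 within 1 kb, 118 (39.5%, interval 33.9 to 45.3) had their midpoint downstream of it, against 55.0% (52.1 to 57.9) of 1180 SAHA-only STAT3 regions at H3K4me3 and 78.9% (78.1 to 79.6) of 11297 H3K4me3 regions. The median midpoint was 179 bp upstream of the start for the members, 48.3 bp downstream for the SAHA-only regions and 210.5 bp downstream for H3K4me3. From 1 kb to 500 bp upstream lay 15.1% of the members within 5 kb of a start, 7.69% of the SAHA-only regions and 2.11% of the H3K4me3 regions. Members lay a median of 534 bp from the summit of the H3K4me3 region (664 members with a summit), and 367 (51.0%) had their midpoint in the middle 50% of its length.

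**Figure D3:**
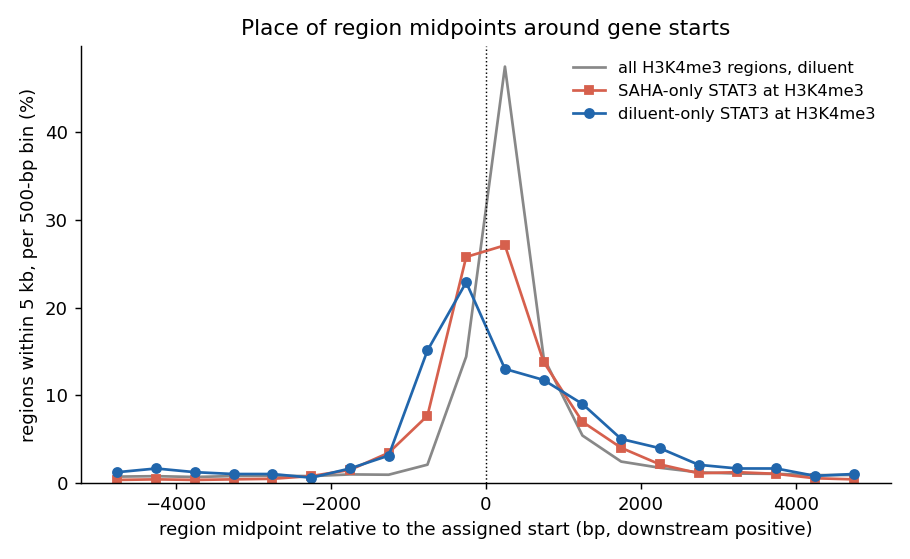
Place of region midpoints relative to the assigned gene start (bp, downstream positive), as the percent of the regions within 5 kb that fall in each 500-bp bin. The diluent-only STAT3 regions at H3K4me3 (blue) have 22.9% in the bin just upstream of the start and 13.0% in the bin just downstream, where all H3K4me3 regions (grey) have 47.5%.

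Among the 8 highest-scoring members at the start of a named gene were those of Frmd5, Nfkbiz, Dph3, Slfn3, Ralgds, Snupn and Zfp46. Nfkbiz (chr16:55837888-55839533) lay with its midpoint 43.5 bp from the start and Snupn, the gene of an import adaptor of spliceosomal particles, 45 bp from it. Slfn3 belongs to the Schlafen family of immune-regulated genes, and Ralgds encodes an exchange factor downstream of Ras. The 8 highest-scoring distal members, beyond 5 kb, were assigned to Lilrb4, Akr1a4, Atp6v1g3, Akap13, Pde3b, Atp6v0a1, Mdh1 and Chd2, at distances from 7993.5 bp (Mdh1) to 65254.5 bp (Pde3b). Atp6v1g3 and Atp6v0a1 encode subunits of the vacuolar proton pump, and an assigned gene at such a distance is the authors' assignment only.

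The members stood on 705 of the 22255 diluent H3K4me3 regions (3.17%), and these were broad and strong. Their median width was 2559 bp, against 1703 bp over all H3K4me3 regions, and their median density 339 tags per kb against 199. The trait was not particular to members. H3K4me3 regions with a SAHA-only STAT3 region had medians of 2514 bp and 369 tags per kb. Broad regions have more room: the share that held a member went from 1.70% for those up to 1 kb wide to 10.5% above 5 kb, whereas members per Mb of H3K4me3 were 23.5 up to 1 kb, 16.0, 13.7 and 15.2 in between, and 18.1 above 5 kb. The H3K4me3 beneath the members differed by place. Members at starts stood on a median of 437 tags per kb and 2945 bp, and distal members on 67.0 tags per kb and 1268 bp.

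In SAHA, 694 of the 720 members (96.4%, interval 94.8 to 97.6) still overlapped a called H3K4me3 region. Of the 705 H3K4me3 regions that held a member, 18 (2.55%, interval 1.52 to 4.01) overlapped no SAHA H3K4me3 region, against a background of 5.37% of all diluent H3K4me3 regions. All 18 were weak in diluent, with authors' H3K4me3 scores of 50.44 to 138.73 in a list whose score is 3100 or more under 447 members. By STAT3 score the first 8 named members with no SAHA H3K4me3 call were those of Cdh23, Clec4n, Pla2g4a, Tnip2, Mitf, Chchd3, Wsb1 and Mcl1. Clec4n (Dectin-2, a receptor for fungal mannans) lay 1946.5 bp upstream of its start on an H3K4me3 region of 521 bp. The members of Chchd3, Wsb1 and Mcl1 stood at the edge of an H3K4me3 region that was called in SAHA too but no longer reached them. Tags were 862 in diluent and 757 in SAHA at Chchd3, and 286 and 169 at Wsb1. The region at Mcl1 had no paired count.

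Tag counts in both libraries, for H3K4me3 regions that met 1 region of the other list, were at hand for 538 of the 705 regions. Regions with no SAHA call have no pair, so they are missing from the ratios and from the counts of lower regions. Member regions without a pair were narrower, with a median of 1788 bp against 2585.5 bp. Differences are given as log2 of SAHA over diluent, scaled to the tags left after duplicate removal, and they compare these 2 libraries rather than the conditions. The 538 regions had a median of -0.03 (quartiles -0.18 and 0.17), and all 17704 paired H3K4me3 regions had one of -0.01. At least 1.5-fold more tags in SAHA were counted in 58 of 538 (10.8%, interval 8.29 to 13.7), against a background of 12.6%, and at least 1.5-fold fewer in 13 (2.42%, interval 1.29 to 4.10), against 3.72%. Called widths also differed between the libraries, by a median log2 of 0.08 at the members. Per kb of called region 23 of 538 were at least 1.5-fold higher (4.28%, background 5.82%) and 14 at least 1.5-fold lower (2.60%, background 2.38%). In each of these counts the H3K4me3 under the members was near the background.

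By place the members differed. For a comparison on the same footing, each H3K4me3 region was placed by its own midpoint here. Of the 287 regions with a member that lay within 1 kb of a start (median -0.09), 5 (1.74%, interval 0.568 to 4.02) were at least 1.5-fold higher in SAHA, below the 6.44% (5.97 to 6.94) of all paired H3K4me3 regions there. The sets compared by place were not matched on tag count. Of the 164 beyond 5 kb (median 0.21), 47 (28.7%, interval 21.9 to 36.2) were at least 1.5-fold higher, and the interval includes the 23.0% of all paired regions at that distance. Of the 87 between 1 and 5 kb (median 0.04), 6 were at least 1.5-fold higher (6.90%, interval 2.57 to 14.4), and the interval includes the 12.7% of all pairs there. Placed by the STAT3 midpoint the medians were -0.09 (262 regions at starts), 0.21 (165 distal) and -0.02 (116 between), so the sign of the last, close to 0, depends on the midpoint used.

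The diluent tag count moved with this split. Among regions with under 300 diluent tags the median was 0.34 for those with a member (156 regions) and 0.20 for all 7853, and from 1000 tags on it was -0.09 for members (259 regions) and -0.08 for all 5072. SAHA tags were at least 1.5-fold higher in 34.0% (26.6 to 42.0) of the member regions under 300 tags and in 26.1% of all such regions, and in 1 of the 259 member regions with 1000 tags or more. From 300 to 1000 tags the share was 3.25% (0.893 to 8.12) for member regions and 3.41% for all. From 1000 tags on it was 0.386% and 0.572%. The part of the tag count in the ratios by place, at starts or distal, was not tested.

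**Figure D4:**
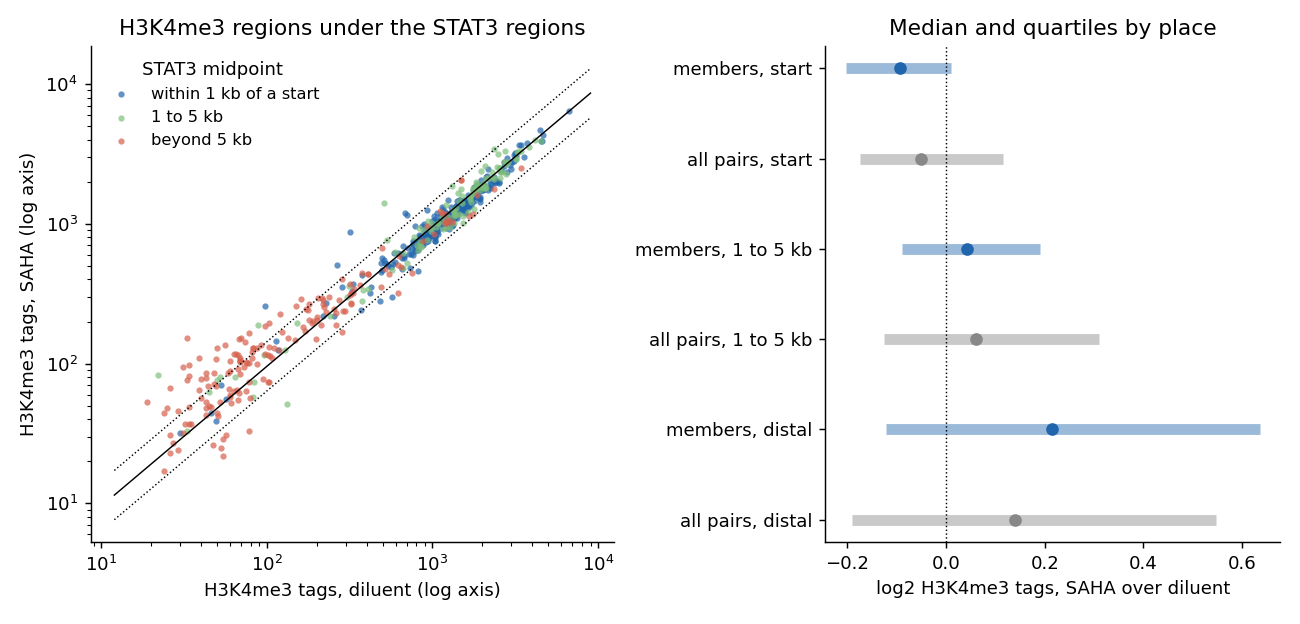
Left, H3K4me3 tags in diluent and in SAHA (log axes) for the paired regions under members, coloured by the distance of the STAT3 midpoint from a start, with the line of equal depth-scaled tags and dotted lines at 1.5-fold. Right, median (point) and quartiles (bar) of the log2 ratio for members (blue) and for all pairs (grey) by place of the H3K4me3 midpoint, with medians of -0.09 for regions with a member within 1 kb of a start and 0.21 for those beyond 5 kb.

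Among members assigned to a named gene and with a paired count, the 6 largest differences upward were those of Gh, Msrb3, Spred1, Ccl9, Ccl6 and Nupr1. The largest under any member was that of the transcript mKIAA1745 (33 and 152 tags, 2.27), given here after its value was seen, and 2 other unnamed transcripts, AK006461 (1.59) and A430107O13Rik (1.55), also lay above some of the 6. The chemokine genes stood out by their counts. The Ccl9 member (chr11:83390164-83391179) lay 1466.5 bp downstream of its start on H3K4me3 with 507 tags in diluent and 1413 in SAHA, a log2 difference of 1.54 (interval 1.40 to 1.69) and of 0.64 per kb. The Ccl6 member (chr11:83406027-83406970) covered the start, with 318 and 875 tags, a difference of 1.53 (1.34 to 1.72) and 1.13 per kb. Nupr1, a stress-induced chromatin protein, had 98 and 260 tags (1.47, interval 1.13 to 1.82) with the member 10 bp from its start. Gh, Msrb3 and Spred1, the last an inhibitor of Ras and MAP kinase signalling, rested on 22, 31 and 39 diluent tags and on 83, 94 and 109 in SAHA. In all 6 named genes the SAHA count was the higher, on a wider called region.

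Among named genes the 6 largest differences downward were those of Trps1, Atp6v1g3, Pabpc2, Dyrk2, Gata3 and Metrnl, of which all but Gata3 were distal. The lowest value under any member was that of the unnamed transcript 6720401G13Rik (133 and 51 tags, -1.32), 2188.5 bp from its start. Gata3, a transcription factor of T cells and innate lymphoid cells, had 573 H3K4me3 tags in diluent and 297 in SAHA, a difference of -0.88 (interval -1.09 to -0.68) and of -0.72 per kb. Its member (chr2:9800664-9801450) lay 830 bp upstream of the start. Dyrk2, a protein kinase gene, had 622 and 318 tags (-0.90, interval -1.10 to -0.71) under a member 72017 bp away. Trps1, Atp6v1g3, Pabpc2 and Metrnl rested on 54, 78, 53 and 54 diluent tags, and on 22, 33, 25 and 29 in SAHA. All 6 named genes were lower in SAHA on a narrower called region, and per kb Pabpc2 was no longer lower (0.10).

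Under most of the highest-scoring members at starts of named genes the H3K4me3 counts differed by less than 1.5-fold. Nfkbiz had 779 tags in diluent and 965 in SAHA (0.37, interval 0.24 to 0.51) and Slfn3 706 and 1153 (0.77, interval 0.64 to 0.91). Dph3 had 1251 and 914 (-0.39, interval -0.51 to -0.26), and Snupn 1258 and 1024 (-0.23, interval -0.35 to -0.11). Zfp46 had 1569 and 1397 (-0.10, interval -0.21 to 0.0027) and Ralgds 670 and 593 (-0.11, interval -0.27 to 0.05). So H3K4me3 tags were higher beyond counting error at Nfkbiz and Slfn3 and lower at Dph3 and Snupn, the intervals of Zfp46 and Ralgds spanned 0, and of these 6 the difference was past 1.5-fold at Slfn3 only. Frmd5, which encodes a FERM domain protein, stood on weak H3K4me3 with 49 and 39 tags.

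Protein-coding genes with a member within 5 kb of a start numbered 502 of 13928 with a start in the lists, a background of 3.6%. Among 467 genes of 24 lists of pathways and cell types, 43 (9.21%) had one. The lists were drawn up with results of these data known and favour genes that dendritic cells express, so this excess is a description of the lists. By count, 5 of 26 inflammatory cytokines and chemokines had a member, 4 of 21 regulatory dendritic cell molecules, 5 of 28 Fc, integrin and other myeloid receptors, 4 of 26 MAP kinase phosphatases and adaptors, 4 of 27 apoptosis genes, 4 of 28 antigen presentation genes, and 2 of 16 macrophage and monocyte markers. There were 3 of 28 STAT3 and cytokine response targets, 2 of 20 costimulation genes, 3 of 30 AP-1, ATF and stress factors, 2 of 19 H3K4 methylation enzymes, 3 of 38 Toll-like receptor and NF-kB genes, and 2 of 29 lysosome genes. At or below 1 gene were JAK-STAT components (1 of 40), dendritic cell identity factors (1 of 24), cell cycle inhibitors (1 of 18) and T cell markers (1 of 9), and no member lay within 5 kb of a start of 29 histone acetylation enzymes, 13 housekeeping genes, 6 developmental genes, or B, NK, granulocyte and erythroid markers.

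Among ligands, the Il6 member (chr5:30338775-30340379, score 63.42) lay 124 bp upstream of the start and inside an H3K4me3 region that held 2703 tags in diluent and 2595 in SAHA, a log2 difference of 0.01 (interval -0.07 to 0.08). The H3K4me3 counts of Il6 in the libraries were the same within counting error. A STAT3 call in diluent alone is the rule for every member. The Il6 member met no region in either STAT3 table called without a control, so its STAT3 tags cannot be compared. Il10, the gene of the anti-inflammatory cytokine that signals through STAT3, had a member of score 31.66 at chr1:132917231-132918287, 1337 bp downstream of the start, on H3K4me3 with 216 tags in diluent. That H3K4me3 region met 2 SAHA regions and has no paired count. Ccl5 (41.07) and Ccl3 (37.16, listed under a transcript name) also had members, so that 4 of the 5 genes of this list are chemokines of 1 cluster on chromosome 11. Il1rn, the gene of the interleukin-1 receptor antagonist, had a member of score 32.31.

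Among receptors and surface molecules, a second Lilrb4 member (score 46.8) covered the start, on H3K4me3 with 3318 and 3631 tags (0.20, interval 0.13 to 0.26). Vsir, which encodes the checkpoint molecule VISTA, had a member of score 44.01 on H3K4me3 with 1320 and 1867 tags (0.57, interval 0.46 to 0.67). The low-affinity Fc receptor genes Fcgr2b (49.37) and Fcgr3 (31.52) had members, with 1213 and 1361 tags at the first and 1011 and 888 at the second. The beta-2 integrin gene Itgb2 (35.72), the maturation marker gene Cd83 (32.72) and the scavenger receptor gene Cd68 (31.56) were on the list with low scores. Cd53 had 3 members within 1 H3K4me3 region (scores 109.9, 36.7 and 30.79), the most of any region, and 14 H3K4me3 regions held 2 or more.

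Among signalling genes and regulators of transcription, Nfkbie (39.67) and Tnip3 (46.29), both brakes on NF-kB, had members at their starts, with 3745 and 3797 H3K4me3 tags at Nfkbie. Ptpn2, a phosphatase of Janus kinases and STATs, had a member of score 34.63 and 1531 and 1140 tags (-0.36, interval -0.47 to -0.25). Dusp16 (62.4), a phosphatase of MAP kinases, and Map3k8 (33.98), a kinase downstream of Toll-like receptors, had members, with 2730 and 3304 tags at Map3k8. Crem (58.77), a cyclic AMP responsive factor, Junb (39.64) and Kdm5c (45.89), a demethylase of H3K4me3, had members too. Tags were 758 and 714 at Crem, 4541 and 3884 at Junb and 1908 and 1535 at Kdm5c. The linker histone gene Hist1h1c (35.92) had 1782 and 1266 (-0.43).

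Among apoptosis and antigen presentation genes, Bcl2a1a (61.83), Bcl2a1d (57.62) and Bcl2a1b (30.46) are near-identical copies of a gene for a pro-survival BCL2 protein, so their counts cannot be told apart with certainty. Cflar, an inhibitor of caspase activation at death receptors, had a member 560 bp from its start (39.63) and others farther away. B2m, the light chain of MHC class I, had a member of score 43.8 over the highest H3K4me3 tag count beneath any member, with 6708 and 6452 tags (0.01, interval -0.04 to 0.06). The peptide-loading gene H2-DMa (34.25), the immunoproteasome gene Psmb8 (30.01, the lowest score of all members) and March1 (47.01), a ubiquitin ligase of MHC class II, completed that list. Of the 24 listed genes with a paired H3K4me3 count, the interval lay above 0 for 10, below 0 for 8, and spanned 0 for 6. It lay above 0 for 24.2% and below 0 for 24.3% of all 17704 pairs, and for 24.0% and 31.4% of the pairs with a member. These shares depend on the tag count, and member regions hold more tags. From 1000 diluent tags on, it lay below 0 for 45.9% of pairs with a member and 42.6% of all. The shares were 31.7% and 29.3% from 300 to 1000 tags, and 7.05% and 9.46% under 300. Above 0 they were 14.7% and 14.7%, 16.3% and 18.9%, and 45.5% and 33.5%, in the same order.

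**Figure D5:**
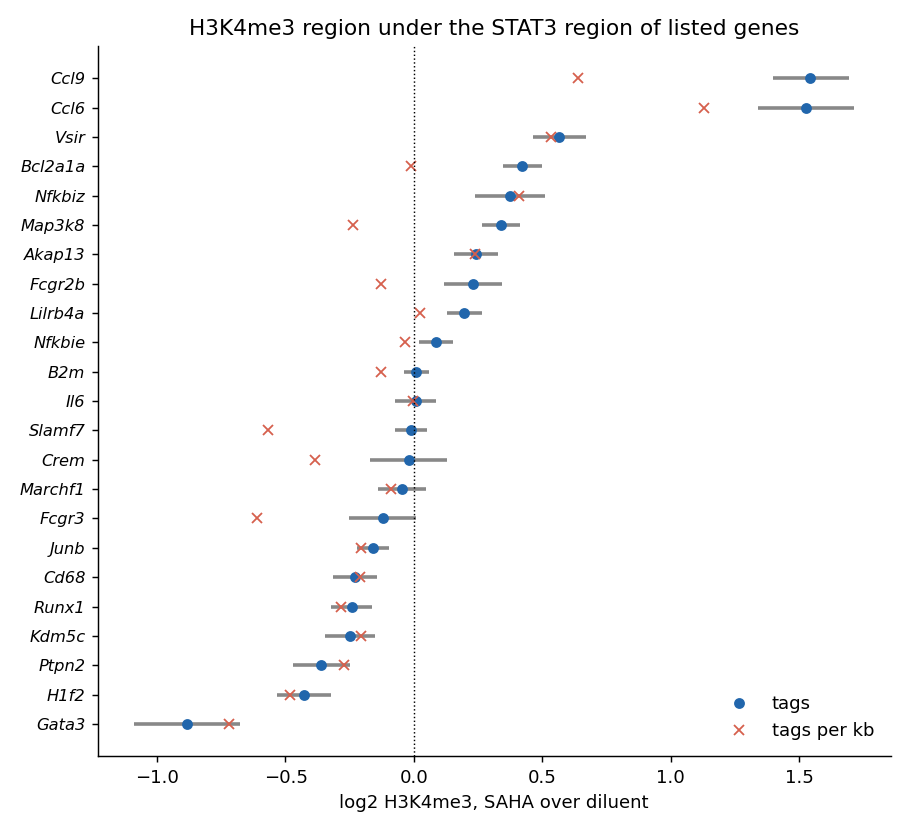
Log2 H3K4me3 tags, SAHA over diluent, of the paired H3K4me3 region under the highest-scoring member within 5 kb of a start of each listed gene (all but 1 of the 24 are plotted). Bars are 95% counting intervals, and crosses give the same per kb of called region. Higher-scoring members farther away, as at Lilrb4 and Akap13, are not used. Ccl9 (1.54) and Ccl6 (1.53) lie above and Gata3 (-0.88) below the other genes, and Il6 (0.01) lies at 0.

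STAT3 regions called in SAHA lay near some of the members. A SAHA STAT3 region lay within 1 kb of 37 members (5.14%) and within 10 kb of 173 (24.0%, interval 20.9 to 27.3), with a median distance of 36150.5 bp. For the diluent-only regions outside H3K4me3 the share within 10 kb was 10.9% (9.74 to 12.2). Of those regions 88.0% lay beyond 5 kb of a start, against 33.9% of the members, so the contrast is not matched on place. The highest-scoring member of all, at Lilrb4, had a SAHA STAT3 region 135 bp away. Of the 705 H3K4me3 regions with a member, 48 (6.81%, interval 5.06 to 8.93) also held a SAHA-only STAT3 region, against 8.74% of all H3K4me3 regions. Of the 502 genes with a member within 5 kb of a start, 92 (18.3%, interval 15.0 to 22.0) had a SAHA STAT3 region within 5 kb, and so did 18.4% of all 13928 genes. The rule bars a SAHA STAT3 region from the member itself, and neither background was matched on this or on H3K4me3 width. These shares are descriptions. Nfkbiz, Junb, Vsir, Fcgr3 and Atp6v0c were among the 92, and Il6, Il10, B2m, Cd53 and Gata3 were not.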

How the data were processed

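The submitters' processing notes name BWA and build mm9 for the 38-base ChIP-seq reads. The deposited tables of single libraries hold tag counts, scores (-10 times log10 of p) and fold enrichment ratios that MACS 1.4.0rc2 gave with no control library (p limit 1e-05, at most 2 tags per position), per the file headers. The 4 deposited lists against IgG hold a score and a gene per region, from the authors; their settings are not given in the sources used here. FastQC text gave the read totals, which are deposited as other values.

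Overlaps (1 bp), distances to the listed start, exact binomial intervals and tag ratios were computed here with Python 3.11.15, pandas 2.3.3 and scipy 1.17.1, and the ratios were tested on simulated data. H3K4me3 tags came from single-library regions with the bounds of a listed region. Of 17024 gene symbols, 87.1% matched RefSeq. Members and gene lists were chosen with earlier results of these data known. Named members follow a rule on score, place, tag ratio, lists and edges, and predicted or unnamed genes were passed over; a few named by it are not reported here. Alternatives are under the closing heading.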

Additional observations from a re-analysis of the deposited data

How the results depend on the processing

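With STAT3 scores of 40 or more, 292 members were left and 34.1% of the diluent-only regions lay at H3K4me3. That share was 20.3% with H3K4me3 scores of 100 or more and 24.4% with the SAHA H3K4me3 list. The share of members at a start was 23.8% within 500 bp and 66.1% within 5 kb. H3K4me3 in SAHA covered 91.0% of members by at least 50% of the region, and 93.6% at SAHA scores of 100 or more. The median log2 H3K4me3 ratio of the members was -0.11 per kb and changed sign to 0.013 when scaled to total reads, and to 0.014 in the top 25% by STAT3 score, an alternative chosen after seeing the data, so it has no stable direction. Regions at least 1.5-fold higher numbered 23 per kb, and listed genes with a member within 1 kb numbered 27. The other 23 alternatives stayed within the limits set (counting interval, or 1.5 times for counts). Fewer tags in the SAHA STAT3 library (17810183 against 25013431) limit what a missing call shows. No paired analysis was possible because each group has 1 library.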

Other observations

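The 500 kb with the most members held 6, at chr11:83004492-83463388, from Slfn3 through Ccl5, Ccl9 and Ccl6 to a transcript beside Ccl3, and the H3K4me3 beneath the 3 of them named above with paired counts (Slfn3, Ccl9, Ccl6) was higher in SAHA by 0.77, 1.54 and 1.53 on the log2 scale. The next held 5, around Cd53 on chromosome 3, and 3 windows on chromosome 1 held 4 each, around Cflar, around Fcgr2b and Fcgr3, and around the interferon-inducible genes Ifi204 and Mndal. Another member stood within 10 kb of 57 members (7.92%, interval 6.05 to 10.1), against 4.90% (4.09 to 5.81) of the diluent-only regions outside H3K4me3 with another such region that near. Within 50 kb the order turned, with 113 of 720 members (15.7%) against 471 of the 2553 regions outside H3K4me3 (18.4%), and the exact intervals overlap. The rule confines members to H3K4me3, so neither contrast is matched on place.

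Members beyond 5 kb were also assigned to genes of the STAT3 pathway itself, among them Stat3 and Socs3, named here after their values were seen. The Stat3 member (score 35.1) lay 7875.5 bp downstream of the start on H3K4me3 with 217 tags in diluent and 285 in SAHA (0.46, interval 0.20 to 0.72, and -0.03 per kb). The member of Socs3 (32.62), the feedback inhibitor of STAT3 signalling, lay 6452.5 bp downstream of the start and 32 bp from a SAHA STAT3 region.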
